A study of Mus musculus with 7 samples.

Results

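Nicotinamide adenine dinucleotide (NAD) carries electrons in metabolism and is also used up as a substrate by enzymes that cut off its nicotinamide. Cells rebuild it by salvage of nicotinamide, by the Preiss-Handler route from nicotinic acid, and de novo from tryptophan through kynurenine, and NAD kinase turns part of it into NADP. In skeletal muscle, nicotinamide salvage is known to sustain the NAD pool, and satellite cells, the stem cells of muscle, rely on that pool for mitochondrial function.

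The set described here holds 10 genes of these routes: the salvage enzymes Nampt, Nmnat1 and Nmnat3, the NAD synthetase Nadsyn1, the kynurenine enzymes Kmo, Kynu and Haao, the NAD kinase Nadk, and the NAD consumers Cd38 and Parp1. They were taken by symbol from a table of 23930 genes, and all 10 were found. The set was chosen by function with the hypercapnia against normocapnia values of these same libraries already known, so its differences between the groups are a description. Calls and intervals of the fit are given for these genes only to set a difference beside the spread, and are no independent test. RNA came from Pax7-GFP cells sorted out of muscle, in 3 libraries of normocapnia (NC1 to NC3) and 4 of hypercapnia (HC1 to HC4).

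Both groups were inducible Pax7-GFP C57BL/6 mice, in which a Pax7-driven Cre lets tamoxifen switch on a lasting GFP mark, so that progeny that no longer express Pax7 stay green. The genotype label counts on to C57BL/12 over the samples, although the protocol describes littermates of a single strain. From 12 weeks of age every mouse was given tamoxifen and kept for 4 weeks in room air (normocapnia) or in air with raised CO2 (hypercapnia), until hind leg muscles were taken at 16 weeks. The methods place the tamoxifen, given in the chow, within the early part of that exposure. The methods of the study state that both groups were injured with cardiotoxin, a toxin that destroys myofibers, days before collection, whereas the labels mention no injury and the title of the deposited table carries a time in hours that no label explains. The labels do not say whether each library is a separate animal or a pool, so tests measure the spread between these libraries, which may be technical.

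Expression was read with an AmpliSeq panel, which amplifies a single short stretch of each gene, in RPM (the reads of a gene scaled to the same library total in every sample). A value therefore compares a gene between libraries and not with another gene. Library totals ran from 14527445 to 23388710 reads, so that a single read stood for 0.0428 to 0.0688 RPM. In the text, log2 fold changes are hypercapnia over normocapnia on the log2(RPM + 1) scale from a limma fit over all genes, with the standard error (SE) of that fit. A gene is called where its unadjusted p was under 0.05 and its fold change above 1.5.

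The labelled cell type was checked against marker lists. All 10 satellite cell and myoblast markers were above 0 in every library, and their summed level was 4215, 999.1 and 594.8 RPM in NC1 to NC3 and 779.2 to 1642 RPM in hypercapnia. The stem cell factor Pax7 was lowest in NC3 (4.34 RPM) and highest in NC1 (268.3 RPM). Of 12 macrophage markers, 11 were above 0 in every library, C1qa being at or near 0 in all 7 libraries, and their sum was 12369, 23618 and 35433 RPM in NC1 to NC3 and 20218 to 25125 RPM in hypercapnia. The macrophage sum was mostly Lyz2 (lysozyme), at 8354, 13313 and 29108 RPM in NC1 to NC3 and 13410 to 16728 RPM in hypercapnia. The other 11 macrophage markers summed to 4015, 10305 and 6325 RPM in NC1 to NC3 and to 8397, 8346, 5767 and 6203 RPM in HC1 to HC4, a sum taken after the data were seen. NC3 was thus highest through Lyz2, whereas NC1 was lowest and NC2 highest in the sum of the other markers. In NC2 the most abundant of these were Cd14 (3031 RPM) and Itgam (2721 RPM). Of the macrophage markers, only Adgre1 had groups that did not overlap (70.5 to 149.0 RPM in normocapnia, with NC3 lowest, against 392.2, 429.1, 151.4 and 183.8 RPM in the hypercapnia libraries 1 to 4), and 0 of the satellite markers did. Neutrophil markers summed to 40.05 to 210.9 RPM over the 7 libraries, and 1 of the 6, Mmp8, had groups apart, at 7.54 to 17.0 RPM in normocapnia and 27.0 to 35.0 RPM in hypercapnia. Within hypercapnia, HC1 and HC2 lay below HC3 and HC4 in satellite cell and myoblast markers (840.1 and 779.2 against 1642 and 1339 RPM), neutrophil markers (84.4 and 40.05 against 210.9 and 148.6 RPM), endothelial markers (53.2 and 41.0 against 438.3 and 338.3 RPM), fibro-adipogenic markers (881.3 and 831.3 against 1746 and 2147 RPM) and myofiber markers (205.0 and 124.2 against 241.5 and 414.3 RPM), and above them in Adgre1 and in the 11 macrophage markers. Normocapnia held 74.5 to 195.7 RPM of endothelial and 1032 to 1494 RPM of fibro-adipogenic markers, and 999.0, 453.5 and 65.6 RPM of myofiber markers in NC1 to NC3, and 5 lymphocyte markers summed to at most 3.05 RPM in any library. The part of this mixture in the values below was not tested, and in such bulk libraries fewer cells of a type and less RNA per cell cannot be told apart.

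**Figure D1:**
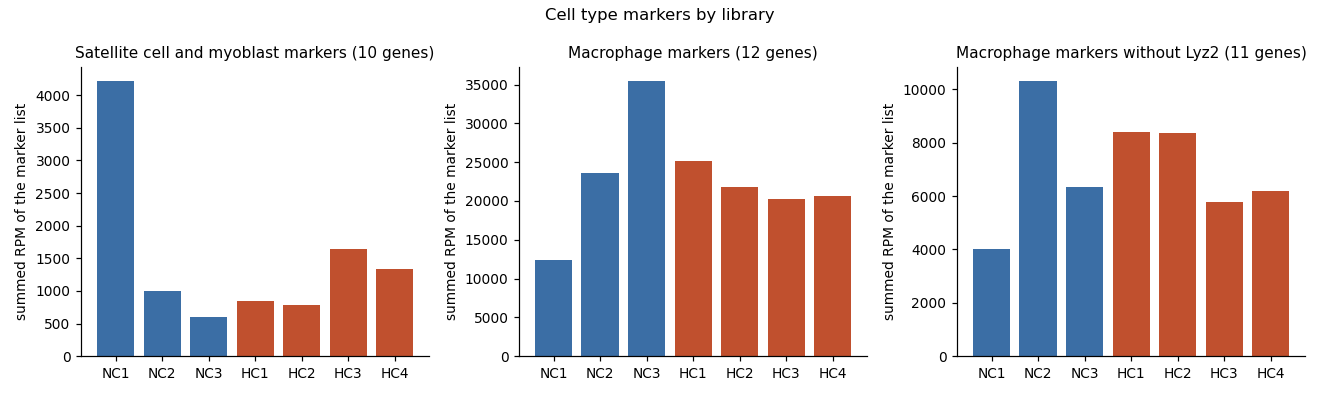
Summed RPM of the satellite cell and myoblast markers (left, 10 genes), of the macrophage markers (middle, 12 genes) and of the macrophage markers without Lyz2 (right, 11 genes) in each library, with normocapnia in blue and hypercapnia in red-brown. NC1 had the highest satellite sum (4215 RPM) and the lowest macrophage sum (12369 RPM), and NC3 the reverse (594.8 and 35433 RPM), but without Lyz2 the highest macrophage sum was that of NC2 (10305 RPM).

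The promoters of the members were read from RefSeq (GRCm38.p6, 250 bases before to 50 after each transcript start), because several members were higher together in hypercapnia, as described further on. Of the 10 genes, 9 had an entry, with 11 windows between them. Kynu had none in that table. Both strands were searched for CACGTG, the E-box bound by CLOCK-BMAL1, MYC and TFEB, for GAAANNGAA, the core of the interferon response element, and for GAGGAAGT, a site of the myeloid factor PU.1. The 3 motifs do not overlap one another in these windows. Background shares were taken over 32851 mouse promoter windows, which leave out a single chromosome. CACGTG was found in 2 of the 11 windows and in 7.15% of the 32851. GAGGAAGT was in 3 of the 11 and in 3.20% of the 32851, and GAAANNGAA in 0 and 8.56%. The 4 windows with a match belong to Nadk, Kmo and Parp1, and are shown in full because these genes are among the 4 members called higher in hypercapnia. The windows of Nampt, Nmnat1, Nmnat3, Nadsyn1, Haao and Cd38 did not hold these letters. A match describes letters only and is no evidence that a factor binds.

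The sequences run 5′ to 3′ on the strand of the gene, with the matched letters in capitals. Kmo (chr1:175631943-175632242, plus strand) holds GAGGAAGT from 103 bases before the start. Nadk has 2 starts: the window of the upstream one (chr4:155562131-155562430, plus strand) holds GAGGAAGT from 76 bases before the start, and that of the downstream one (chr4:155563565-155563864, plus strand) holds the reverse complement ACTTCCTC from 200 bases and CACGTG from 40 bases before the start. Parp1 (chr1:180568641-180568940, plus strand) holds CACGTG from 49 bases before the start.
Kmo: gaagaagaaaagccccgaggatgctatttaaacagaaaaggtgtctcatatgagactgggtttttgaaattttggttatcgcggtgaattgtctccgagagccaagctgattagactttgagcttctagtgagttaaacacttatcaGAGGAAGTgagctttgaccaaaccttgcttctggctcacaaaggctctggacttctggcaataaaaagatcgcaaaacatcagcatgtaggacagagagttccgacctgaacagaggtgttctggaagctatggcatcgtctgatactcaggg
Nadk upstream start: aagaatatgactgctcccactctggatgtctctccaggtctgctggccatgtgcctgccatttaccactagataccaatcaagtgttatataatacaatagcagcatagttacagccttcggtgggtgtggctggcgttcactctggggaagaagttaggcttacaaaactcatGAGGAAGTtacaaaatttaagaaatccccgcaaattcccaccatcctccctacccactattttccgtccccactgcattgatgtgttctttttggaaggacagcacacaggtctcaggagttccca
Nadk downstream start: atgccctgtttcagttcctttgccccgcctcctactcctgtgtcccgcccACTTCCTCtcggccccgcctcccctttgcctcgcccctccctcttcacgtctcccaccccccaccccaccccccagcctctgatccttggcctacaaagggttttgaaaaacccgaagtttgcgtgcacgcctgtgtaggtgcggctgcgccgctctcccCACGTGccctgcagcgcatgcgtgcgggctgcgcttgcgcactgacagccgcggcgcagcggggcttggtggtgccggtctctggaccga
Parp1: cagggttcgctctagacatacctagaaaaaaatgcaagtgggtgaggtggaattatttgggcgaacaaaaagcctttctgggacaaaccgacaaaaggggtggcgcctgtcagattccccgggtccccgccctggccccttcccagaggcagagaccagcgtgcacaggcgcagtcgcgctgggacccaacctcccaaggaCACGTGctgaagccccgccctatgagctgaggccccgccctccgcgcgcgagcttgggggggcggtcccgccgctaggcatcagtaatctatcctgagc

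Among the 10 genes, Nampt, Nadk, Kmo and Parp1 were higher in hypercapnia, with folds on the log2(RPM + 1) scale of 1.72, 1.51, 2.33 and 1.70. Nadsyn1 was higher by a smaller amount, which depended on the scaling. The NMN-converting enzymes Nmnat1 and Nmnat3 and the kynurenine enzyme Haao stood at close group means, Kynu was near the limit of detection, and Cd38 was lower on average with overlapping groups. By count, limma called 4 of the 10 higher and 0 lower, where 1.43% of all genes were called higher and 1.14% lower, or 2.66% higher of the 12504 genes whose mean reached 1 RPM. In 4 of the 10 (Nampt, Nadsyn1, Nadk and Kmo) every hypercapnia library lay above every normocapnia library, as in 2.53% of all genes and 4.09% of genes at 1 RPM or more, and in 0 every hypercapnia library lay below, as in 2.30% of all genes. Because the set was chosen with this contrast known, nothing is read from these counts. The median log2 fold change of the 10 genes was 0.38, against 0.02 over all genes and 0.16 over genes at 1 RPM or more. That general upward shift of 0.16 in RPM was 0.04 after scaling by the median of ratios and -0.01 after quantile normalization.

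**Figure D2:**
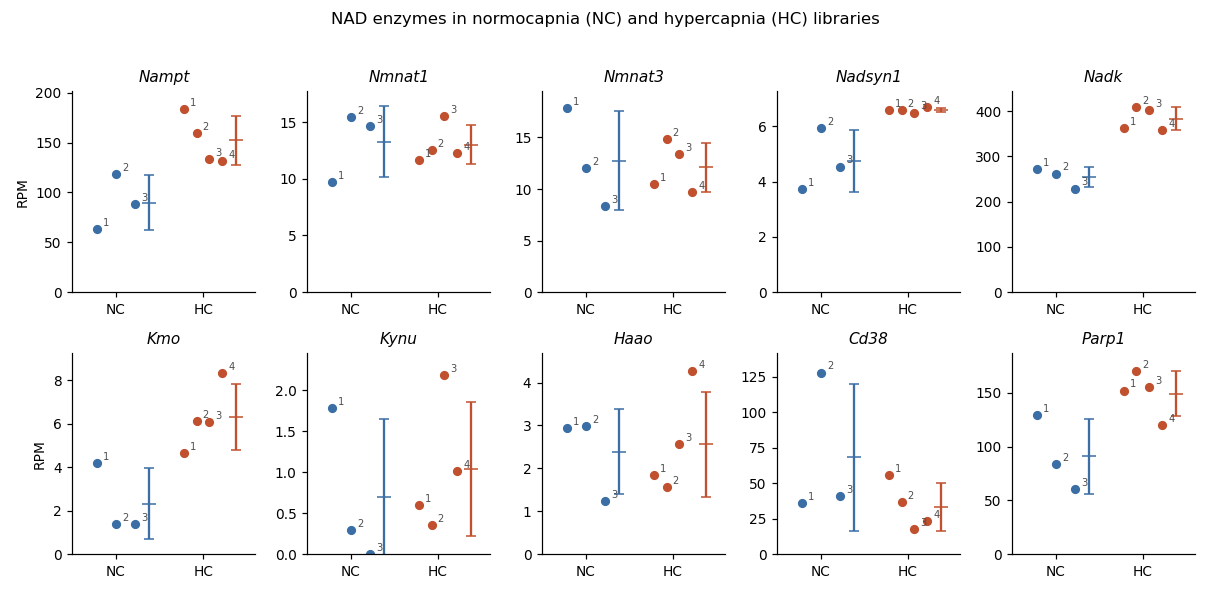
RPM of each of the 10 NAD genes in the 3 normocapnia (NC, blue) and 4 hypercapnia (HC, red-brown) libraries, numbered as in the labels, with the mean and SD of each group beside the points (for Kynu the lower end of the normocapnia bar falls below 0 and is cut off). Every axis starts at 0 and has its own scale. The groups do not overlap for Nampt, Nadsyn1, Nadk and Kmo, and HC4 of Parp1 (119.7 RPM) lies below NC1 (129.0 RPM).

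Nampt, the rate-limiting enzyme of salvage, joins nicotinamide to a ribose phosphate to give nicotinamide mononucleotide (NMN). It stood at 63.1, 118.4 and 88.0 RPM in NC1 to NC3, and at 183.9, 159.5, 133.0 and 131.8 RPM in HC1 to HC4. NC2 came nearest to the hypercapnia libraries, and HC1 and HC2 lay above HC3 and HC4. The means were 89.8 ± 27.7 RPM (SD, n = 3) and 152.1 ± 24.8 RPM (SD, n = 4), a log2 fold change of 0.79 (SE 0.24). Within normocapnia, Nampt had the order of the 11 macrophage markers other than Lyz2 (NC1, NC3, NC2), and within hypercapnia HC1 and HC2 were likewise the higher libraries in both. NC2 had the highest sum of these 11 markers, led by Cd14 and Itgam, and 118.4 RPM of Nampt. The part of these cells in the Nampt values was not tested.

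Nmnat1 and Nmnat3 carry out the next step, the joining of NMN to an adenylyl group to give NAD, in the nucleus and in mitochondria respectively. Nmnat1 stood at 9.68, 15.4 and 14.7 RPM in normocapnia and at 11.6, 12.6, 15.5 and 12.3 RPM in hypercapnia. The hypercapnia values lie almost wholly within the normocapnia range, and the log2 fold change was -0.01 (SE 0.18), with a 95% interval from -0.47 to 0.45. Nmnat3 stood at 17.9, 12.1 and 8.33 RPM against 10.5, 14.8, 13.4 and 9.68 RPM, with all hypercapnia values inside the normocapnia range. Its log2 fold change was -0.03 (SE 0.28; 95% interval -0.73 to 0.66), an interval that still holds a fold of 1.5 in either direction. Within normocapnia the pair ran opposite ways, NC1 being lowest for Nmnat1 and highest for Nmnat3. Whether their log2 fold changes differ from that of Nampt was not tested.

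Nadsyn1, which makes NAD from nicotinic acid adenine dinucleotide and so closes both the Preiss-Handler and the de novo route, stood at 3.75, 5.94 and 4.54 RPM in normocapnia and at 6.59, 6.58, 6.498 and 6.70 RPM in hypercapnia. The groups did not overlap, and the log2 fold change of 0.42 (SE 0.13) lay under the fold threshold. It was 0.29 after scaling by the median of ratios, 0.33 in edgeR and 0.07 after quantile normalization, smaller than its error there (SE 0.43). The hypercapnia libraries lay closer together (SD 0.0841 RPM) than their counting error. They held 154, 131, 104 and 99 reads of this gene, and the exact 95% Clopper-Pearson interval of HC4 alone ran from 5.45 to 8.16 RPM. The SE therefore rests partly on a spread smaller than counting error. It was 0.26 with genes under a mean of 1 RPM left out of the fit. By the same interval, NC2 (4.996 to 7.02 RPM) could not be told from the hypercapnia libraries at this depth.

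Of the kynurenine enzymes, Kmo hydroxylates kynurenine at the outer mitochondrial membrane and is known from macrophages and microglia. It stood at 4.19, 1.37 and 1.38 RPM in NC1 to NC3 and at 4.67, 6.13, 6.06 and 8.33 RPM in HC1 to HC4. NC2 and NC3 were low, whereas NC1 lay close under HC1. The means were 2.31 ± 1.63 RPM (SD, n = 3) and 6.30 ± 1.51 RPM (SD, n = 4), and the log2 fold change was 1.22 (SE 0.34), the widest upward difference of the 10 genes at this pseudocount (at 5 RPM Kmo was 0.64, under Nampt at 0.76 and Parp1 at 0.74). Reads of Kmo numbered 20 to 123 per library, and the exact 95% intervals of NC1 (3.39 to 5.13 RPM) and HC1 (3.83 to 5.63 RPM) overlap, so these libraries did not differ beyond counting error. Such intervals cover counting error only, because PCR copies are not independent molecules. Adgre1 was apart between the groups as Kmo was. Within normocapnia NC2 had the most Adgre1 (149.0 RPM) and NC3 the least (70.5 RPM), and their low Kmo was alike within counting error. NC1 had the most Kmo with 109.0 RPM of Adgre1. Within hypercapnia HC4 had the most Kmo with 183.8 RPM of Adgre1, and HC1 the least with 392.2 RPM.

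Kynu and Haao act after Kmo, cleaving 3-hydroxykynurenine and opening the ring of 3-hydroxyanthranilate. Kynu was at 1.78, 0.299 and 0 RPM in normocapnia and at 0.599, 0.352, 2.19 and 1.02 RPM in hypercapnia. These values rest on 0 to 40 reads, and the 0 of NC3 allows up to 0.207 RPM (3 reads). NC1 and HC3 were highest, and a log2 fold change of 0.33 (SE 0.46) was smaller than its error. It was 0.76 without NC1, 0.02 without NC3, 0.09 without HC3 and 1.17 with a pseudocount of 0.1 RPM. Haao stood at 2.94, 2.99 and 1.24 RPM against 1.84, 1.56, 2.56 and 4.27 RPM. Its groups overlapped throughout, with the highest and the second lowest library in hypercapnia and the lowest in normocapnia (log2 fold change 0.06, SE 0.34). Kmo was therefore the only one of the 3 kynurenine enzymes in the set whose groups were apart.

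Nadk, the cytosolic kinase that phosphorylates NAD to NADP, the precursor of NADPH, stood at 271.4, 262.1 and 229.0 RPM in normocapnia and at 363.4, 409.2, 403.2 and 358.4 RPM in hypercapnia. The groups were far apart relative to their spread, with 254.2 ± 22.3 RPM (SD, n = 3) and 383.6 ± 26.3 RPM (SD, n = 4). The log2 fold change was 0.59, just past the threshold, with the smallest SE of the set (0.08). With genes under a mean of 1 RPM left out of the fit, that SE was 0.24 at the same fold. The difference rests on 3327 to 8491 reads per library, the deepest coverage among the 10 genes. Unlike Nampt, Kmo and Parp1, whose coefficient of variation was 30.9% to 70.4% in normocapnia, Nadk varied by 8.77% there. All 3 normocapnia libraries lay under all hypercapnia libraries. Within normocapnia Nadk had the order of the satellite sum, from NC1 down to NC3. Within hypercapnia HC2 was highest in Nadk and lowest in that sum. The part of the cell mixture in these values was not tested.

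Among the consumers, Parp1 attaches ADP-ribose chains to proteins at DNA breaks and is a main user of nuclear NAD. It stood at 129.0, 83.6 and 60.2 RPM in NC1 to NC3 and at 152.1, 169.8, 155.6 and 119.7 RPM in HC1 to HC4. Only NC1 and HC4 crossed, and the means were 90.9 ± 35.0 RPM (SD, n = 3) and 149.3 ± 21.2 RPM (SD, n = 4), a log2 fold change of 0.77 (SE 0.28). Within normocapnia Parp1 had the order of the satellite sum, from NC1 down to NC3, an order shared by Nadk and Nmnat3. Within hypercapnia HC2 was highest in Parp1 and lowest in that sum. The part of satellite cells in these values was not tested. Cd38, an ectoenzyme of immune cells that hydrolyses NAD, went the other way on average, at 35.8, 127.9 and 41.1 RPM against 55.4, 36.5, 17.4 and 23.1 RPM. NC2 stood far above the others, HC1 lay above NC1 and NC3, and HC3 and HC4 were lowest. The log2 fold change of -0.91 had an SE of 0.61, and without NC2 it was -0.34. The means, 68.3 ± 51.7 RPM (SD, n = 3) and 33.1 ± 16.9 RPM (SD, n = 4), thus differed by less than the spread within normocapnia.

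**Figure D3:**
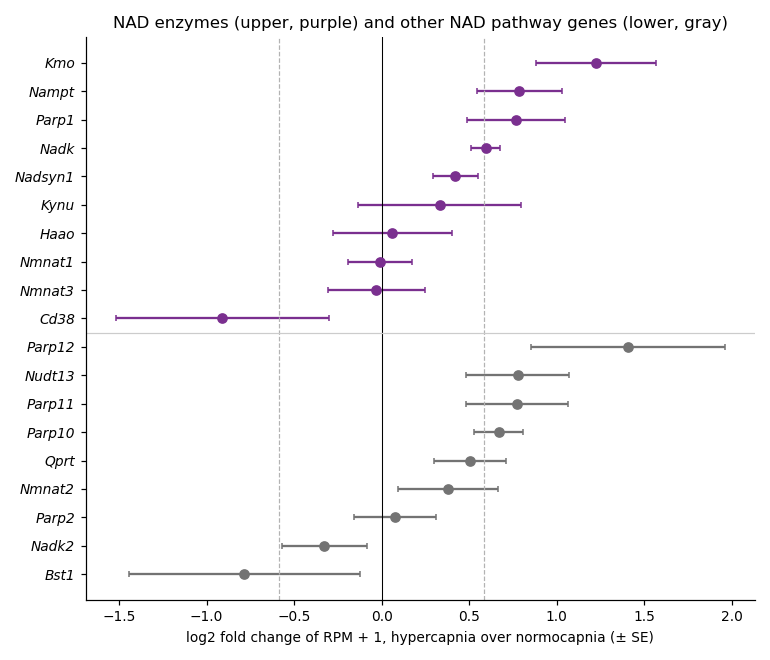
Log2 fold change of RPM + 1, hypercapnia over normocapnia, with SE bars from the limma fit, for the 10 NAD genes (upper, purple) and 9 other NAD pathway genes (lower, gray). Dashed lines mark a fold of 1.5 in either direction. Kmo (1.22), Nampt (0.79), Parp1 (0.77) and Nadk (0.59) lie past it, as do Parp12, Nudt13, Parp11 and Parp10 below the divider, and Cd38 (-0.91) and Bst1 (-0.78) lie past the lower line with wide bars and are not called.

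The rest of the pathway was taken from a list of 45 further genes, of which 44 were in the table (Pnp was not analysed here). In these 44 genes, 29 log2 fold changes were above 0, 14 below and 1 at 0, with a median of 0.16, the same to this rounding as for all genes at 1 RPM or more. Limma called 4 higher and 0 lower, beside 1.43% higher and 1.14% lower of all genes. Of genes whose mean reached 1 RPM, 2.66% were called higher. This list too was chosen with earlier results of these data known, so nothing is read from its count. None passed 0.05 after Benjamini-Hochberg adjustment over all genes (lowest adjusted p 0.712 in limma), nor did any in edgeR or DESeq2 on whole reads, where 3 of 37 and 5 of 43 had an unadjusted p under 0.05. Over all genes limma gave 0 after adjustment and 1114 at an unadjusted p under 0.05, edgeR 0 and 806 of 13293 genes tested, and DESeq2 29 and 1351 of 21487.

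In the de novo route from tryptophan, 8 of 9 further genes had a log2 fold change above 0 and 0 were called, and in the Preiss-Handler and salvage routes 5 of 6 were above 0 and 0 were called, where 7765 of the 12504 genes at 1 RPM or more were above 0. Of the 8, Ido1, Ido2, Aadat and Acmsd rest on 0 to 13 reads per library. Both genes of nicotinamide disposal were below 0, as were 1 of 2 glycohydrolases and 3 of 5 enzymes of ADP-ribose removal, again with 0 called. The called genes were 3 of 13 ADP-ribosyl transferases and 1 of 7 genes of NADP formation, NAD repair and transport. Parp10, Parp11 and Parp12 attach single ADP-ribose units to proteins and are known as interferon-inducible. Parp12 stood at 76.0, 94.9 and 21.1 RPM in normocapnia and at 169.0, 177.4, 122.4 and 115.8 RPM in hypercapnia, with the groups apart (log2 fold change 1.40, SE 0.55; limma adjusted p 0.915). NC3 was by far the lowest library for this gene, and without it the log2 fold change was 0.75, still called. Parp10 stood at 23.4, 28.9 and 32.2 RPM against 45.4, 52.8, 41.0 and 41.6 RPM, also apart (0.67, SE 0.14; limma adjusted p 0.712). Parp11 stood at 16.0, 17.8 and 12.0 RPM against 35.1, 34.1, 17.1 and 24.0 RPM, HC3 falling below NC2 (0.77, SE 0.29; limma adjusted p 0.915). In all 3, HC1 and HC2 exceeded HC3 and HC4, the same split as in Adgre1 and, in reverse, in the satellite cell, neutrophil, endothelial and fibro-adipogenic markers, and the part of these cells was not tested. Parp9, singled out after its values were seen, was apart without being called in limma (1.02, SE 0.45; adjusted p 0.915), and was called in 7 of 15 alternatives. It stood at 59.7, 56.4 and 19.1 RPM against 96.4, 101.1, 67.5 and 71.4 RPM, and without NC3 its log2 fold change was 0.51. Nudt13, a hydrolase that acts on NADH, was the remaining called gene, at 20.1, 21.5 and 9.78 RPM against 31.8, 32.3, 24.2 and 26.5 RPM (0.78, SE 0.29; limma adjusted p 0.915). Without NC3, its lowest library, it was 0.44 and under the fold threshold. Of 15 alternatives, the call was kept in 10 for Parp10, 9 for Parp12, 7 for Nudt13 and 4 for Parp11. Parp11 (0.60 to 0.97) and Parp12 (0.75 to 1.81) stayed past the fold threshold in all 15, so that their calls were lost through p alone.

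**Figure D4:**
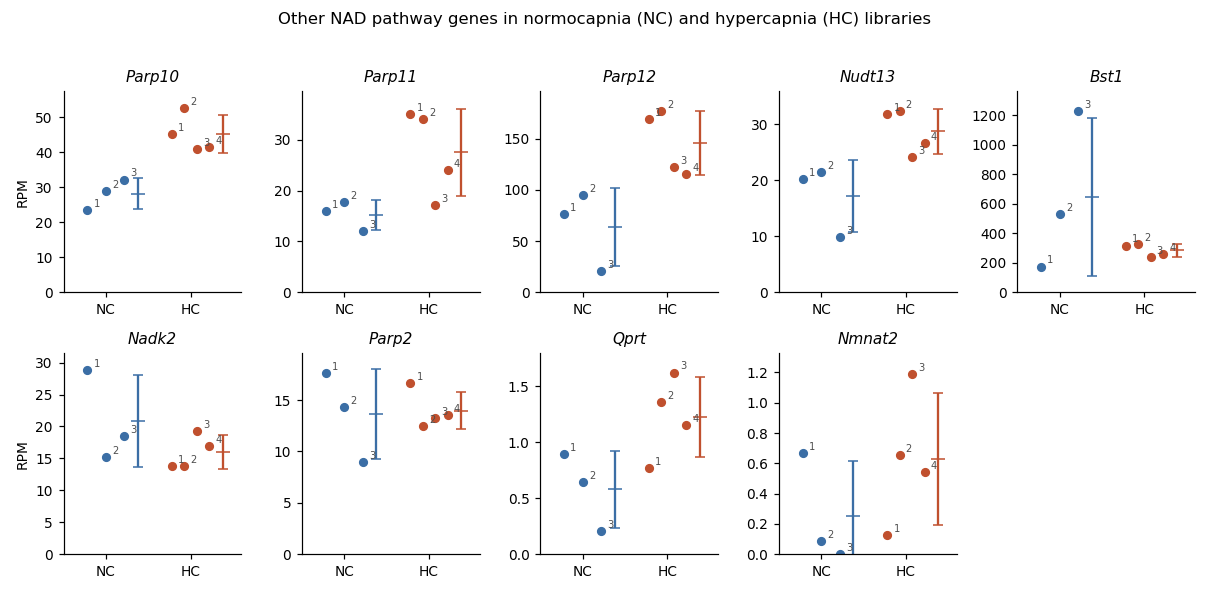
RPM of 9 other NAD pathway genes in normocapnia (NC, blue) and hypercapnia (HC, red-brown) libraries, drawn as for the NAD genes, with group mean and SD and each axis from 0 (the lower end of the normocapnia bar of Nmnat2 is cut off). Parp10, Parp12 and Nudt13 have groups that do not overlap, and Bst1 spans 173.8 to 1230.3 RPM within normocapnia.

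Genes that share a step with a member were set beside it. Parp2, the closest relative of Parp1 in DNA repair, stood at 17.6, 14.3 and 8.95 RPM against 16.7, 12.5, 13.2 and 13.5 RPM, with overlapping groups (log2 fold change 0.07, SE 0.23). Within normocapnia it shared the order of Parp1. Nadk2, the mitochondrial NAD kinase, was at 28.9, 15.2 and 18.4 RPM against 13.8, 13.9, 19.2 and 17.0 RPM (-0.33, SE 0.24; -0.08 without NC1), where Nadk was higher in all hypercapnia libraries. The difference between the kinases was not tested. Bst1, which hydrolyses NAD as Cd38 does, was at 173.8, 529.5 and 1230.3 RPM against 316.4, 324.7, 236.4 and 255.9 RPM (-0.78, SE 0.66). Its normocapnia values had the order of Lyz2, from NC1 up to NC3, and all hypercapnia values lay within the normocapnia range. Single libraries set its value, which was -1.52 and called lower without NC1 and -0.11 without NC3, and DESeq2 also called it (-1.58). Qprt, which takes the product of Haao on to the nicotinic acid mononucleotide, was at 0.892, 0.641 and 0.207 RPM against 0.770, 1.36, 1.62 and 1.15 RPM (0.50, SE 0.20; limma adjusted p 0.915). Qprt was called higher without NC1 (0.65) or HC1 (0.61), and was 0.32 without NC3. At its few reads the value also moved with the method, to 1.08 and 0.16 with pseudocounts of 0.1 and 5 RPM, 1.07 in edgeR and 1.01 in DESeq2. Nmnat2, the neuronal counterpart of Nmnat1, stayed at or under 1.19 RPM in every library. The first enzymes of the de novo route were scarcely read, with Tdo2 at 0 in all 7 libraries and Ido1 at no more than 0.81 RPM.

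The calls of the members depended on scaling and on single libraries. With median-of-ratios scaling, which removes most of the general shift, Kmo (1.13) and Parp1 (0.63) remained called and had groups apart, which those of Parp1 were not in RPM, while Nampt (0.64) and Nadk (0.45) were not called and their groups overlapped. Kmo kept its call under each of 14 alternatives and lost it only where the replicate number entered as a block, at a log2 fold change of 1.095. Nampt (0.85) and Parp1 (0.87) also kept their fold and lost the call in that fit, in which HC4, the only library numbered 4, has no weight in the difference. Nampt kept its call in 8 of 15 alternatives and lost it also in edgeR (0.61), in DESeq2 (0.57) and without NC1 (0.56), NC3 (0.79) or HC2 (0.76), the last pair with its fold kept and p past 0.05. Parp1 kept its call in 9, losing it also without NC2 (0.74), NC3 (0.51), HC1 (0.75), HC2 or HC3 (0.74), and Nadk kept its call in 9. Without NC3, Kmo alone was called, at 1.03, with Nampt at 0.79, Nadk at 0.52 and Parp1 at 0.51. Without HC2 it was also the only member called, Nampt (0.76) and Parp1 (0.70) keeping their fold. Nadk never differed in direction, from 0.44 (DESeq2) to 0.65 (quantile normalization), and it lost its call through the fold threshold alone, except in edgeR and DESeq2, where p also missed 0.05.

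**Figure D5:**
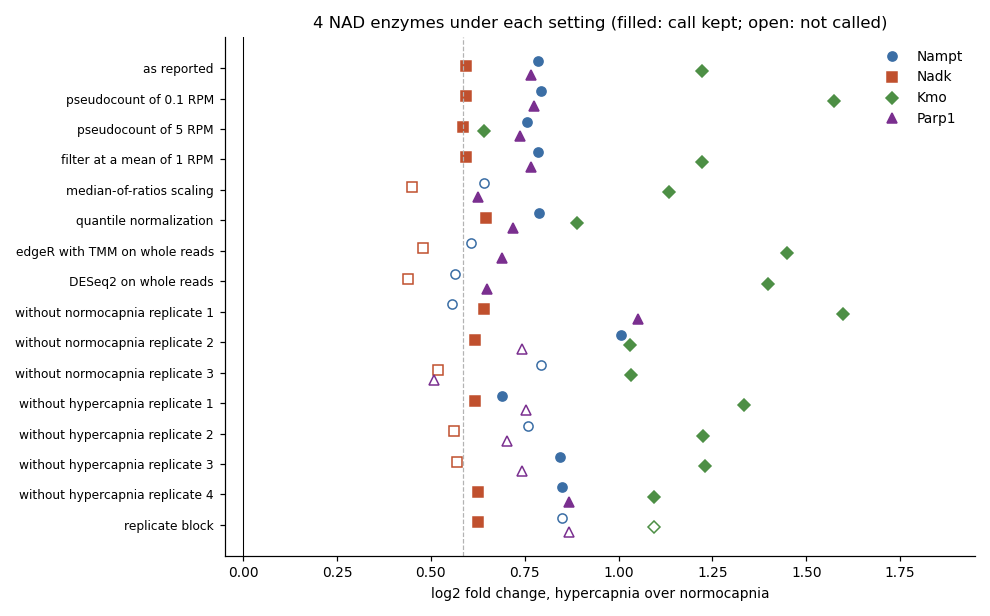
Log2 fold change of Nampt, Nadk, Kmo and Parp1, hypercapnia over normocapnia, as reported and under 15 alternatives. Filled symbols are called (unadjusted p under 0.05 and fold above 1.5, dashed line) and open symbols are not; all values are above 0, from 0.44 (Nadk in DESeq2) to 1.598 (Kmo without normocapnia replicate 1).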

How the data were processed

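RNA of sorted Pax7-GFP cells was measured in 3 normocapnia and 4 hypercapnia libraries, grouped by their labels. The authors prepared AmpliSeq libraries on an Ion Chef, sequenced them on an Ion GeneStudio S5 and deposited RPM, in which the reads of each gene are divided by those of the library. Per the labels, Transcriptome Analysis Console was used. For the aligner and genome build, these were not given in the sources used here. RPM values were whole multiples of 1 read within 0.05 reads for 100% of values, which gave back library totals of 14527445 to 23388710 reads. A value of 0 allows up to 3 reads (0.128 to 0.207 RPM). No filter was applied, and 2443 genes at 0 in all 7 libraries stayed in the table.

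All genes were fitted with limma 3.58.1 (R 4.3.3) on log2(RPM + 1), two-sided, without covariates, and called at an unadjusted p under 0.05 and a fold above 1.5. Benjamini-Hochberg adjustment ran over all genes. The fits and the recovery of reads were tested on simulated data. Alternatives were pseudocounts of 0.1 and 5 RPM, median-of-ratios scaling, a filter on genes with means under 1 RPM, quantile normalization, edgeR 4.0.16 and DESeq2 1.42.0 on recovered whole reads, leaving out each library, and the replicate number as a block. Intervals are exact Clopper-Pearson at 95% (scipy 1.17.1). Members and lists were chosen with earlier results of these data known. Named genes are the 10 members, called genes of the pathway list and Nmnat2, Nadk2, Bst1, Parp2 and Qprt.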

Additional observations from a re-analysis of the deposited data

How the results depend on the processing

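The count of members called higher (4 as reported) was 2 with median-of-ratios scaling, 2 in edgeR, 2 in DESeq2 and 1 with the replicate number as a block, and 1 to 4 when single libraries were left out (1 without NC3 or HC2, 2 without HC3). The members whose groups were apart (4) numbered 2 with median-of-ratios scaling. Of the other pathway genes, 4 were called higher as reported, 2 with quantile normalization and 2 in edgeR, and 1 to 7 without single libraries (7 without NC1, 2 without NC3, HC1 or HC3, 1 without HC2 or HC4); 0 were called lower as reported, 1 with the filter at 1 RPM (Nt5e), 1 in edgeR (Nt5e) and 2 in DESeq2 (Nt5e and Bst1), and 0 to 2 without single libraries (Bst1 and Nt5e without NC1, Nnmt and Tnks without NC3, named after their values were seen).

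Over all genes, 343 were called higher and 272 lower, against 170 lower with a pseudocount of 5 RPM, 508 lower in edgeR, and 519 higher and 785 lower in DESeq2. Without single libraries these counts ran from 216 to 1495 and from 154 to 534, with 1495 and 495 without NC1, 671 and 534 without NC2, 231 and 154 without HC1, and 216 and 160 without HC2. After adjustment 0 passed in limma, 29 in DESeq2 and 0 to 8 without single libraries (8 without NC1, 1 without NC3).

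Genes with log2 fold changes near 0 changed sign. Haao was -0.027 with median-of-ratios scaling, -0.26 with quantile normalization, -0.024 in DESeq2, -0.15 with the block and -0.22 to 0.20 without single libraries. Parp2 was -0.055 with median-of-ratios scaling, -0.17 with quantile normalization, -0.046 in DESeq2, -0.0066 in edgeR and -0.18 to 0.27 without single libraries. Nmnat1 was 0.014 and Nmnat3 0.061 with the block, and -0.21 to 0.11 and -0.28 to 0.23 without single libraries. The cause of these changes was not tested. The replicate numbers were not used as pairs outside the block fit. Deviations from the group means correlated at -0.35, 0.50 and -0.04 for the numbers 1 to 3, over 12504 genes at 1 RPM or more. Of these 3 normocapnia libraries, 2 correlated best with another number. Correlations over so few libraries cannot decide whether the numbers mark pairs.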

Other observations

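Nt5e, an ectoenzyme that splits NMN and AMP and belongs to the pathway list, was singled out after its values were seen. It stood at 16.8, 60.3 and 68.1 RPM in NC1 to NC3 and at 8.18, 6.93, 20.6 and 23.0 RPM in HC1 to HC4. NC1 lay below HC3 and HC4, and the log2 fold change of -1.60 (SE 0.68) was not called by limma (adjusted p 0.915). It was called lower in 4 of 15 alternatives, namely limma with the filter at 1 RPM (-1.60), edgeR (-2.04), DESeq2 (-2.09) and limma without NC1 (-2.22), with adjusted p of 0.849, 0.758, 0.226 and 0.286. Over all alternatives it ran from -2.22 to -1.25.

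By Dixon's criterion, 0 of the 19 genes named by the rule held a hypercapnia library far from the other 3. Groups of 3, as in normocapnia, were not examined in this way.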
